A study of Mus musculus with 18 samples.

Results

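The airway secretory and mucosal genes considered here are Bpifa1, Bpifb1, Bpifb3, Cyp2f2, Cyp2a5, Sec14l3, Reg3g, Muc5b, Sftpd and Foxa1, 10 of the 46583 genes in the deposited table. They were taken by gene symbol and were chosen by their measured levels, since several of them stood high in the apex of the mutant and in the base of the control in earlier results of the same libraries. Levels in those pools are therefore a description of how the genes were chosen, and no p-value of a member is given for any comparison with them. Where the number of members passing in such a comparison is printed, it is not a test.

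RNA was measured in bulk from the cochlea of untreated 4-week-old mice, cut along its length into base, middle and apex. The cKO groups (base, middle and apex) came from mice with a conditional knock-out of Fst, the gene of the secreted activin-binding protein follistatin. The control groups (base, middle and apex) came from mice with the genotype label WT. Each of the 6 groups is 1 RNA pool of an unstated number of animals, divided into 3 technical libraries. The Cre driver and the cells in which Fst was deleted are not given in the sources used here.

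The epithelium of the airways, and of cavities continuous with them such as the nose and the middle ear, is covered by a film of mucus and secreted antimicrobial proteins. Secretory cells make mucins, BPI fold proteins and xenobiotic-metabolising cytochrome P450 enzymes, ciliated cells move the film, and basal cells renew both. Foxa1 is a forkhead transcription factor active in such epithelia. The sensory epithelium of the cochlea lies in a closed fluid compartment and is not a mucosa of this kind.

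All 10 genes are protein coding. Bpifb3, Bpifa1 and Bpifb1 lie close together on chromosome 2, and Cyp2a5 and Cyp2f2 lie close together on chromosome 7, whereas the other 5 are on separate stretches of the genome (GRCm38/mm10, GENCODE M21). RefSeq start site windows on GRCm38.p6, each running from 250 bases before to 50 bases after a start, were matched for 8 members and gave 10 windows. Windows of 6 members are printed, because these genes had the clearest and most different patterns over the pools: Bpifa1, Cyp2f2 and Foxa1, which were highest in cKO apex and next highest in control base, Cyp2a5 and Sec14l3, which were near 0 outside cKO apex, and Bpifb3, which was high in the apex of both genotypes. Capitals mark a forkhead-type motif (the letters TGTTTAC as the first form, TATTTAC as the second, TGTTGAC as the third and TATTGAC as the fourth) or TATAAA, on either strand; the 2 kinds of match do not overlap.
Bpifa1 (chr2:154142630-154142929, + strand): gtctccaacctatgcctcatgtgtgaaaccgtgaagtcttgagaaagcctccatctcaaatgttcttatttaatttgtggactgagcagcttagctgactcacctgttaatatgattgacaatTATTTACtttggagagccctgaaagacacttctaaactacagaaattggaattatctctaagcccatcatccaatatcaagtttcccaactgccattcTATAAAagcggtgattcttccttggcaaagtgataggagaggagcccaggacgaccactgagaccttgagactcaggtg
Cyp2f2 (chr7:27119705-27120004, + strand): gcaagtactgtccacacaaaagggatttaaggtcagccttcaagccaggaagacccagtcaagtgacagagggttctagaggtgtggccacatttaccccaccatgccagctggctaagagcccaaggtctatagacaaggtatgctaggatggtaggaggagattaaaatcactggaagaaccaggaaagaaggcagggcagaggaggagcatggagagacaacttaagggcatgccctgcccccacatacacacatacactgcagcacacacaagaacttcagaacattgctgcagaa
Foxa1 (chr12:57546062-57546361, - strand): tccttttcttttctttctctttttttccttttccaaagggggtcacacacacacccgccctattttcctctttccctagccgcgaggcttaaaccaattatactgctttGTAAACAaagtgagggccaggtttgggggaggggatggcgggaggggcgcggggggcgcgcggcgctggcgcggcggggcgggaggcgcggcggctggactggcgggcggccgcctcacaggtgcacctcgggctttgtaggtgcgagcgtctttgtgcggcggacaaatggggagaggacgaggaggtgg
Cyp2a5 (chr7:26835089-26835388, + strand): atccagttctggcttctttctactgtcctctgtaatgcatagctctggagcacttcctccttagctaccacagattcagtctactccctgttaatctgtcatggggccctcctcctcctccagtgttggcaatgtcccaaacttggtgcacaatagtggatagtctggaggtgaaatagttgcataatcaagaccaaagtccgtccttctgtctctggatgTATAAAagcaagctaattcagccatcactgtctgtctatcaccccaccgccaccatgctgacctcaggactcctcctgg
Sec14l3 (chr11:4064603-4064902, + strand): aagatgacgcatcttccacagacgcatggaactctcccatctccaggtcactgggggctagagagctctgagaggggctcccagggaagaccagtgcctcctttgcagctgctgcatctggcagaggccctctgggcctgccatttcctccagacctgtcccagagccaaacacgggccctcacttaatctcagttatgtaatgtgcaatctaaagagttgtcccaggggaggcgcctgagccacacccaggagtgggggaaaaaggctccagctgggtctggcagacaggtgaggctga
Bpifb3 (chr2:153918144-153918443, + strand): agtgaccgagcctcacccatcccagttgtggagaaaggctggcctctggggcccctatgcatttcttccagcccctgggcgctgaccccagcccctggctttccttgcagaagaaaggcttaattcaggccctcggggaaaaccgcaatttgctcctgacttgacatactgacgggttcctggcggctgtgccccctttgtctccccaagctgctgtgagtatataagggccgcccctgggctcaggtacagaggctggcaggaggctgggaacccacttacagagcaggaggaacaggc
In the Bpifa1 window the forkhead letters stood at -127 and TATAAA at -29 relative to the start, and in the Foxa1 window the forkhead letters stood at -141 on the other strand. The Cyp2a5 window held TATAAA at -29. Of the 10 member windows, 3 held a forkhead match (those of Bpifa1 and Foxa1 and 1 of Bpifb1), against 10.02% of all 32851 windows. TATAAA was in 3 of the 10 (those of Bpifa1, Cyp2a5 and Reg3g), against 13.62% of all windows. The Cyp2f2, Sec14l3 and Bpifb3 windows held neither set of letters, so no match was shared by Bpifa1, Cyp2f2 and Foxa1.

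Library totals ran from 24446765 to 33732709 counts, and levels are given as CPM, counts scaled to a common library total with TMM factors. Where a group has 0 counts, a floor of 3 counts over its libraries was used as the limit. Intervals and floors cover counting error only. Since each group is n = 1 pool, the SD and every p-value below carry the spread between technical libraries and not between animals. Calls needed both a change of at least 2-fold and an adjusted p under 0.05. Fst itself was at 2.98 ± 0.347 CPM in cKO middle, against 6.4 ± 0.576 in control middle (SD, n = 3 libraries each), and at 9.74 ± 0.38 CPM in cKO apex, against 23.8 ± 0.864 in control apex. In the base it was at 1.89 CPM in cKO and 2.22 CPM in control, a log2 change of -0.22 ± 0.15 (adjusted p = 0.308). Whether these counts cover the deleted part of the gene is not given, so they check the labels in part. Of 12 cochlear genes used as a check of the tissue, all had counts in every pool, which does not show that the pools hold the same tissue. Against control of the same region, Tectb was called lower in cKO apex, Tecta and Tectb higher in cKO middle, and 0 in cKO base. In control base against control apex, 1 was called higher and 5 lower.

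All 10 members had their highest mean level in cKO apex. The order of the other pools was not the same from gene to gene. Bpifa1 made up 90.6% of the members' summed CPM in cKO base and 88.9% in control base, 73.7% in cKO middle and 15.5% in control middle, and 85.2% in cKO apex and 35.5% in control apex. The members summed to 99.4 CPM in cKO base and 125 CPM in control base, to 14.6 CPM in cKO middle and 3.5 CPM in control middle, and to 363 CPM in cKO apex and 17.8 CPM in control apex. Members with a mean of at least 1 CPM numbered 2 in cKO base and 3 in control base, 2 in cKO middle and 1 in control middle, and 7 in cKO apex and 2 in control apex. In bulk RNA, fewer cells of a type and less RNA per cell cannot be told apart.

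**Figure D1:**
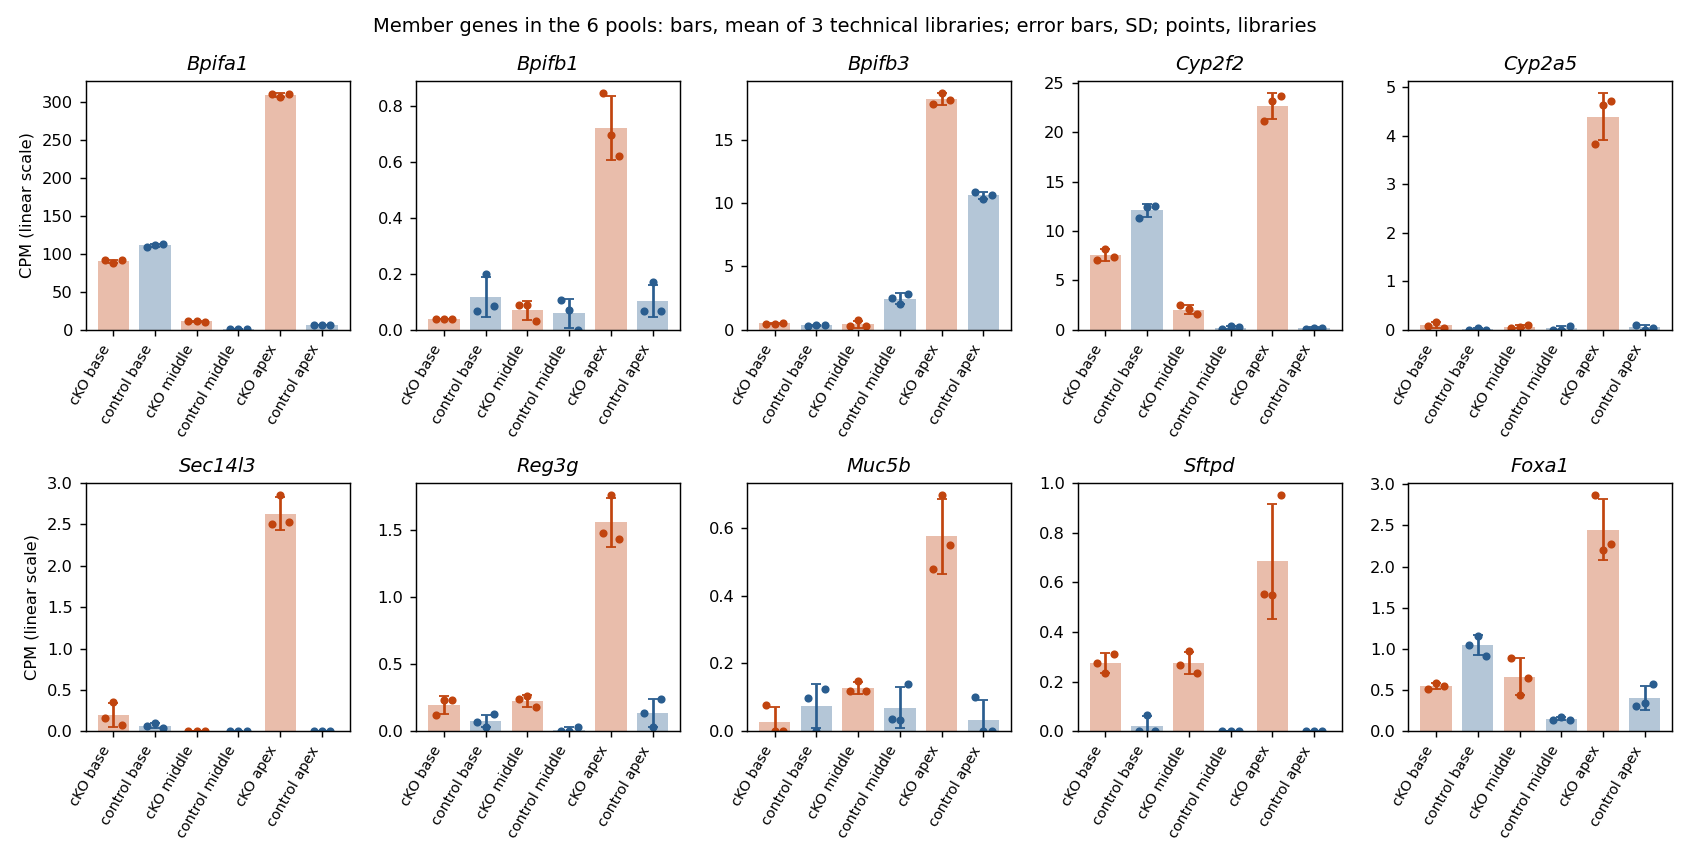
CPM of each member (linear axes from 0, a separate scale for each gene) in the 6 pools; bars are means of 3 technical libraries, error bars the SD and points the libraries, with cKO in orange and control in blue. Bpifa1, Cyp2f2 and Foxa1 are second highest in control base, Bpifb3 is second highest in control apex, and Cyp2a5 and Sec14l3 are near 0 outside cKO apex.

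Bpifa1 encodes a secreted BPI fold protein of upper airway surface fluid with antimicrobial and surfactant properties. Its levels were 91.4, 87.5 and 91.1 CPM in the cKO base libraries, against 109, 111 and 112 CPM in control base. They were 11.2, 10.7 and 10.5 CPM in cKO middle, against 0.591, 0.519 and 0.52 CPM in control middle. In the apex they were 311, 306 and 311 CPM in cKO, against 6.51, 5.97 and 6.51 CPM in control. No pool overlapped its neighbour in this order, and the technical libraries of a pool lay close together. The ratio of cKO apex to control base was 2.79 (95% exact interval 2.72 to 2.86, on summed counts), that of cKO apex to control apex was 48.9, and that of cKO base to control base was 0.812 (0.787 to 0.838). The 2 highest pools were therefore of different genotype and region, and in the base the cKO pool was the lower.

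Cyp2f2, a cytochrome P450 of airway secretory (club) cells, followed the same order of pools down to cKO middle. It was at 7.04, 8.17 and 7.39 CPM in cKO base, against 11.3, 12.4 and 12.5 CPM in control base. In the middle it was at 2.46, 2.04 and 1.53 CPM in cKO, against 0.0695, 0.311 and 0.208 CPM in control. In the apex it was at 21.1, 23.1 and 23.7 CPM in cKO, against 0.0341, 0.17 and 0.203 CPM in control. The libraries of control middle and control apex overlapped and were the lowest. The ratio was 1.88 (1.74 to 2.03) for cKO apex over control base, 0.626 (0.564 to 0.694) for cKO base over control base and 167 (95.2 to 323) for cKO apex over control apex. An antisense gene, Gm15883, overlaps Cyp2f2 and had 59 counts over all libraries, 29 of them in cKO apex; the strand setting of the counting is not given, so reads of the pair may not have been told apart.

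The forkhead factor gene Foxa1 had pool means between 0.15 and 2.45 CPM. Its levels were 0.511, 0.586 and 0.547 CPM in cKO base, against 1.05, 1.16 and 0.919 CPM in control base. In the middle they were 0.89, 0.443 and 0.649 CPM in cKO, against 0.139, 0.173 and 0.139 CPM in control, and in the apex 2.87, 2.2 and 2.27 CPM in cKO, against 0.307, 0.339 and 0.576 CPM in control. As for Bpifa1, cKO apex came first and control base next, without overlap, and cKO middle and cKO base overlapped. The ratio of cKO apex to control base was 2.33 (1.80 to 3.02), so for Bpifa1, Cyp2f2 and Foxa1 it lay between 1.88 and 2.79.

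Cyp2a5 and Sec14l3 did not share the level in control base. Cyp2a5, the coumarin 7-hydroxylase of liver and olfactory mucosa, had 104, 126 and 129 counts in cKO apex (4.39 CPM), against 3, 0 and 1 counts in control apex. It had 2, 4 and 1 counts in cKO base, against 0, 1 and 0 in control base. Its near-identical paralog Cyp2a4 was at 0 counts in all libraries, and how the authors divided reads between such copies is not given, so the assignment to Cyp2a5 is uncertain. Sec14l3, a lipid-binding protein of the Sec14 family, had 68, 78 and 69 counts in cKO apex (2.63 CPM), and 0 counts in control apex, which makes cKO apex at least 77.5-fold higher. It had 4, 9 and 2 counts in cKO base, against 2, 3 and 1 in control base, and 0 in the middle of both genotypes. For both genes cKO apex stood apart from all 5 other pools.

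Bpifb3, a BPI fold family gene of the same chromosome 2 cluster as Bpifa1, had a different pattern from it. It was at 17.9, 18.7 and 18.2 CPM in cKO apex, against 10.9, 10.3 and 10.7 CPM in control apex, a ratio of 1.72. In the middle it was at 0.267, 0.738 and 0.266 CPM in cKO, against 2.5, 2.01 and 2.84 CPM in control, and in the base the means were 0.483 CPM in cKO and 0.32 CPM in control. The apex of both genotypes and control middle were thus the high pools, and control base, the second highest pool of Bpifa1, was the lowest.

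The secreted defence genes were low. Bpifb1, a BPI fold protein of airway glands and goblet cells, had 23, 19 and 17 counts in cKO apex, against 2, 5 and 2 in control apex, and 2, 6 and 2 in control base. Muc5b, a gel-forming mucin, had 13, 19 and 15 counts in cKO apex, against 3, 0 and 0 in control apex, and 3, 0 and 3 in control base. Reg3g, a bactericidal C-type lectin, had 40, 48 and 39 counts in cKO apex, against 4, 1 and 7 in control apex, and 2, 1 and 3 in control base. In each of these genes the cKO apex libraries lay above all others, and the libraries of control base and control apex overlapped.

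Sftpd, a collectin of airway and alveolar fluid, was the member in which every cKO library lay above every control library of the same region. It had 7, 6 and 8 counts in cKO base, against 0, 2 and 0 in control base, then 9, 11 and 8 counts in cKO middle, against 0 in each control middle library, and 15, 15 and 26 counts in cKO apex, against 0 in each control apex library. The cKO apex pool was at least 20.2-fold higher than control apex. Its cKO pools did not follow Bpifa1, since cKO middle and cKO base stood at 0.276 and 0.274 CPM.

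Per gene length, on the authors' FPKM scale, Bpifa1 was far above the other members in cKO apex, with a mean level of 336 FPKM. Next were Cyp2f2 at 13.5 FPKM and Bpifb3 at 11.7 FPKM. Reg3g (2.56 FPKM), Cyp2a5 (2.45 FPKM) and Sec14l3 (1.26 FPKM) formed a middle range. Foxa1 was at 0.812, Sftpd at 0.597, Bpifb1 at 0.468 and Muc5b at 0.0388 FPKM, so the mucin was the lowest member on this scale.

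Whether the members kept a fixed proportion to each other was described by counting each against Bpifa1. Cyp2f2 had 83.7 counts per 1000 Bpifa1 counts in cKO base (95% exact interval 76.7 to 91.1) and 73.2 in cKO apex (69.8 to 76.7), against 109 in control base (102 to 116). Foxa1 had 6.09 (4.39 to 8.24) in cKO base and 7.91 (6.85 to 9.09) in cKO apex, against 9.49 (7.61 to 11.7) in control base. For these pairs the proportions in the pools richest in Bpifa1 lay within a narrow range, although the Cyp2f2 intervals of cKO apex and control base do not overlap.

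The other members did not keep that proportion over these pools. Per 1000 Bpifa1 counts, Sftpd alone of them stayed close in cKO base, at 3.05 (1.88 to 4.66) against 2.22 (1.67 to 2.88) in cKO apex. Lower in cKO base than in cKO apex were Cyp2a5 (1.02 against 14.2), Sec14l3 (2.18 against 8.51) and Reg3g (2.18 against 5.02). So were Bpifb3 (5.37 against 59), Bpifb1 (0.435 against 2.33) and Muc5b (0.29 against 1.86). At the cKO apex proportion, the 9377 Bpifa1 counts of control base would stand beside 133 counts of Cyp2a5, 79.8 of Sec14l3, 47.1 of Reg3g and 553 of Bpifb3. The counts observed in control base were 1, 6, 6 and 27. Sftpd had 2 counts beside 20.8 so computed. Bpifb1 and Muc5b had 10 and 6 counts beside 21.9 and 17.4, and their intervals in cKO apex and control base overlapped. Their ratios of cKO apex to control base were 6.11 (3.1 to 13.4) and 8.11 (3.46 to 23.2). Both lay above the Bpifa1 ratio of 2.79 (2.72 to 2.86). Thus Cyp2f2 and Foxa1 accompanied Bpifa1 in both pools. Cyp2a5, Sec14l3, Reg3g, Sftpd and Bpifb3, and on few counts Bpifb1 and Muc5b, stood at a lower proportion in control base than in cKO apex. The cKO apex proportion is the reference here and says nothing of that pool. Bpifb3 had 1678 counts per 1000 of Bpifa1 in control apex.

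**Figure D2:**
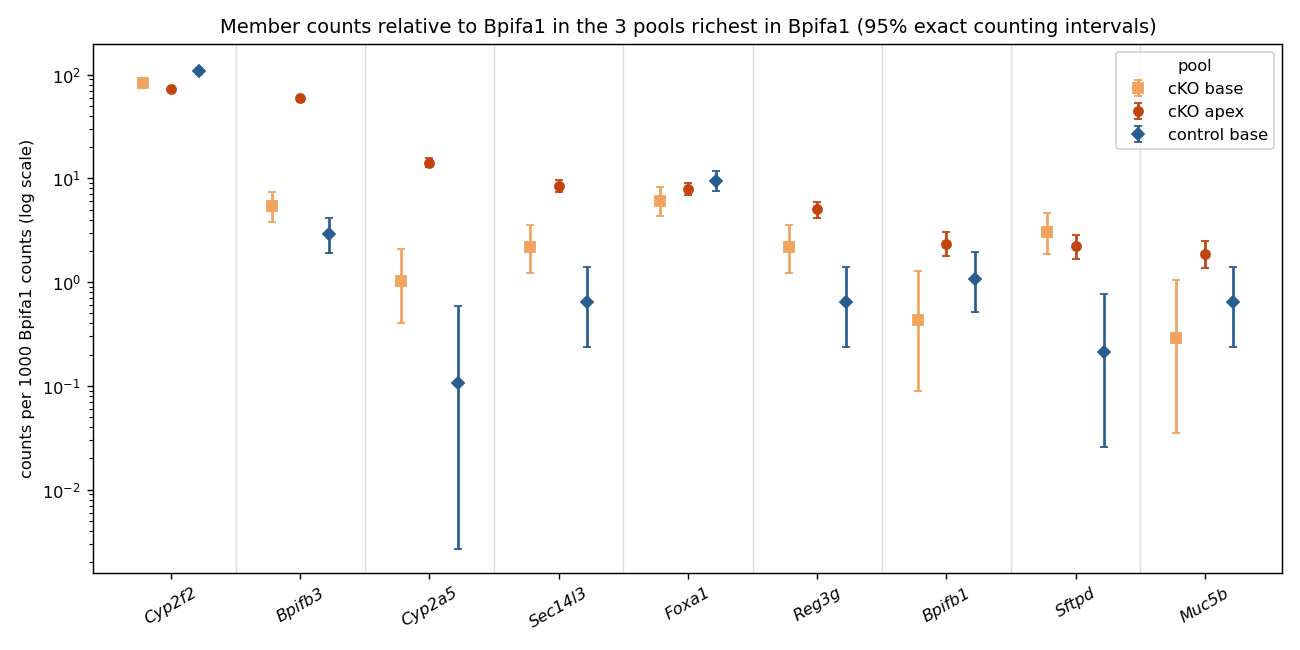
Counts of each member per 1000 Bpifa1 counts (log axis) in cKO base, cKO apex and control base, the 3 pools with most Bpifa1; points are summed counts of 3 libraries and bars 95% exact counting intervals. Cyp2f2 (83.7, 73.2 and 109) and Foxa1 (6.09, 7.91 and 9.49) stay close over the pools, whereas Cyp2a5 and Bpifb3 are far lower in control base than in cKO apex.

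Proportions were not kept in the pools poor in Bpifa1. In cKO middle there were 186 Cyp2f2 counts (160 to 217) and 61.2 Foxa1 counts (47.1 to 78.3) per 1000 of Bpifa1. In control apex there were 21.5 Cyp2f2 counts (11 to 37.8), so that Bpifa1 at 6.33 CPM there came with nearly no Cyp2f2.

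The members were tested in the comparison of cKO middle with control middle, whose libraries were not among those that chose them. Bpifa1, Cyp2f2, Foxa1, Reg3g and Sftpd rose in cKO middle and Bpifb3 fell. Thus 5 of 10 members were called higher, where 2.15% of 17901 tested genes were, and 1 was called lower, where 0.575% were. Reg3g and Sftpd had at least 10 counts in each library of a pool only in cKO apex, a pool used in the choice. Since the members were chosen with earlier results of these libraries known, nothing is read from these shares. Bpifa1 was higher by 4.30 ± 0.12 on the log2 scale (SE, n = 3 libraries; edgeR adjusted p = 8.75e-26), with the cKO libraries at 10.5 to 11.2 CPM and the control libraries at 0.519 to 0.591 CPM. Cyp2f2 was higher by 3.33 ± 0.30 (adjusted p = 3.83e-11) and Foxa1 by 2.10 ± 0.39 (adjusted p = 3.81e-05). For these 3 genes no library of the pools overlapped.

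Reg3g had 8, 9 and 6 counts in cKO middle, against 0, 0 and 1 in control middle, a ratio of 19.6 (3.18 to 808) with an edgeR adjusted p of 3.65e-04. Sftpd had 28 counts in cKO middle and 0 in control middle, which is at least 7.96-fold higher (edgeR adjusted p = 2.39e-05). Bpifb3 fell by 2.52 on the log2 scale (SE 0.22; edgeR adjusted p = 1.68e-11), with 9, 25 and 9 counts in cKO middle, against 72, 58 and 82 in control middle. Bpifb1, with 7 counts in cKO middle and 5 in control middle, Cyp2a5, with 6 and 2, and Muc5b, with 13 and 6, were not called, and Sec14l3 had 0 counts in both. On the log2(FPKM + 1) scale, which understates changes of low genes, the members called here numbered 2. Beside this comparison, the 12 red blood cell genes, counted as a sign of blood in the sample, summed to 1034 CPM in cKO middle and 1058 CPM in control middle.

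The other comparisons each hold cKO apex or control base, whose levels were used to choose the members. The number of members passing in them is therefore bound up with the choice and is no test. Shares of all genes are printed for scale only, and nothing is read from the counts beside them. Of the 10 members, 9 passed as higher in cKO apex than in control apex, beside 1.49% of all genes, and Bpifb3 did not reach a 2-fold change. In the base, Sftpd alone passed as higher in cKO than in control, beside 2.51% of all genes. In control base against control apex, 4 passed as higher (Bpifa1, Cyp2f2, Sec14l3 and Foxa1), beside 3.2%, and Bpifb3 passed as lower, beside 2.28%; this comparison shares control apex with the first. All 10 members passed the low-count filter, but Bpifb1, Cyp2a5, Sec14l3, Reg3g, Muc5b and Sftpd had at least 10 counts in each library of a pool only in cKO apex and so were bound to differ there.

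The label of an airway tissue was checked against its defining genes. Scgb1a1, the secretoglobin that defines club cells, had 1 count in cKO apex and 6 in control apex, and 1 count in cKO base and 2 in control base. Muc5ac, the mucin of goblet cells, had 4 counts in cKO apex and 2 in control apex. Bpifa2, a BPI fold family gene that does not define airway epithelium, was at 0 in all pools. Scgb3a2 was at 0.477 CPM in cKO apex and 0.464 CPM in control apex. Scgb3a1 was at 0.208 CPM in cKO apex and 0.17 CPM in control apex, with 17 and 15 counts. Scgb1a1 and Muc5ac were thus at or near 0 where Bpifa1 was at its highest. Of 8 tested other genes that airway secretory cells express, 3 (Cbr2, Gabrp and Muc4) were called higher in cKO apex than in control apex and 5 were not called. Gabrp, with 60 counts against 1, reached 10 counts in each library only in control base, cKO middle and cKO apex. It thus passed the low-count filter through pools where it was high, and its call is no separate support. Muc4, with 30 counts against 2, reached that level in no pool. The set is called here by its genes and not by a cell type.

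Genes of other airway cells gave a mixed picture. Krt5, a keratin of basal cells, had 32 counts in cKO apex and 0 in control apex, at least 11.5-fold higher. It had 12 counts in cKO middle and 0 in control middle, but 10 in cKO base and 9 in control base. Krt5 did not pass the low-count filter. Trp63, the basal cell transcription factor, had pool means of 1.8 to 2.41 CPM and was not called in the apex (log2 change 0.42 ± 0.18, edgeR adjusted p = 0.0585). Sftpc, the surfactant protein of alveolar cells, had at most 1 count in a pool, and Nkx2-1, the lung transcription factor, had 5 counts in cKO apex and 0 elsewhere. Foxa2, which is paired with Foxa1 in the lung, had 3 counts in cKO apex and 1 in control apex. Epcam, an epithelial adhesion molecule that the cochlea also expresses, was at 118 CPM in cKO apex and 114 CPM in control apex.

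**Figure D3:**
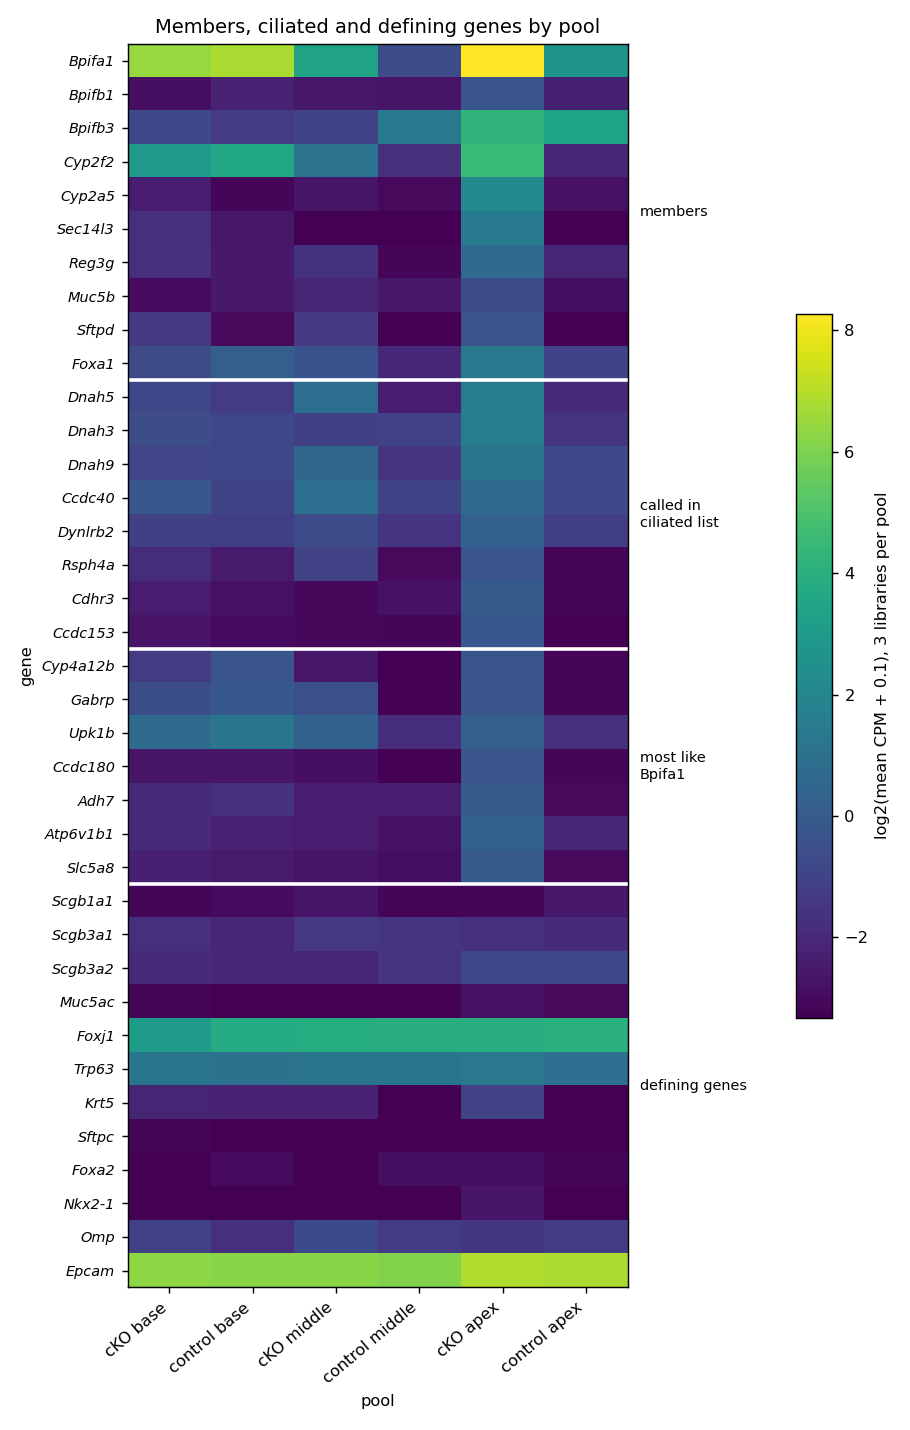
Mean level of each gene on the log2(CPM + 0.1) scale (colour) in the 6 pools: the 10 members, the ciliated cell genes called in cKO apex, the 7 other genes most like Bpifa1 and defining genes of neighbouring cell types. Scgb1a1, Muc5ac and Sftpc stay near the bottom of the scale in every pool, while Foxj1 and Epcam are high in all 6.

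Further airway and mucosal genes were read from 11 lists with 168 genes found, of which 94 could be tested; the members are not among these 168 and the lists were written with earlier results known. In cKO apex 17 of the 94 rose and 3 fell against control apex, beside 1.49% and 0.553% of all genes, and the median log2 change was 0.16, against 0.00475 over all genes. In cKO middle 10 rose and 3 fell (median 0.05), beside 2.15% and 0.575%. In cKO base 10 rose and 1 fell (median 0.13), beside 2.51% and 0.514%. In control base 9 rose and 8 fell against control apex (median -0.04), beside 3.2% and 2.28%. This last comparison shares control apex with the first. In it, 0 of 20 tested ciliated cell genes rose and 2 fell (Tekt1 and Hydin). Of 8 tested other airway secretory cell genes, 3 rose in it (Muc4, Gabrp and Cbr2) and 1 fell (Scgb3a2, with 11 counts in control base). The call of Scgb3a2 was lost without control apex replicate 2 (log2 change -1.11, edgeR adjusted p = 0.107). Since the lists were written with earlier results known, nothing is read from their share against all genes. Of the 17, Cyp2b10, Cdhr3 and Ccdc153 had at least 10 counts in each library of a pool only in cKO apex, so that they passed the low-count filter through that pool and were bound to differ there.

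Among other airway secretory cell genes, 3 of 8 tested rose in cKO apex (Cbr2, Gabrp and Muc4) and 0 fell (4 of 8 had an unadjusted edgeR p under 0.05, and DESeq2 called 3). Of these 3, Cbr2 alone had at least 10 counts in each library of every pool. Cbr2, a carbonyl reductase abundant in mouse lung, was at 17.9 ± 0.756 CPM in cKO apex, against 4.72 ± 0.321 CPM in control apex (log2 change 1.93 ± 0.08, edgeR adjusted p = 7.18e-21), and at 13.6 CPM in cKO base, against 11.3 CPM in control base. Its change in the apex exceeded that in the base by 1.66 ± 0.11 (edgeR adjusted p = 9.92e-15). Of all genes, 0.855% were called higher and 1.56% lower by this difference of changes. List genes were named for their calls in cKO apex or control base, pools that enter this difference. Its p-values for them are therefore no separate support. The list summed to 113 to 115 CPM in the cKO apex libraries, against 100 to 101 CPM in control apex.

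Of the BPI fold family, 3 of 13 further genes had enough counts for a test, and Bpifb4, a gene of the chromosome 2 cluster, rose in cKO apex to 3.35 ± 0.544 CPM, against 0.498 ± 0.189 CPM in control apex (log2 change 2.74 ± 0.23, edgeR adjusted p = 3.89e-12). In cKO base it was at 0.822 CPM, against 0.522 CPM in control base. The change in the apex exceeded that in the base by 2.08 ± 0.40 (edgeR adjusted p = 1.23e-04). Bpifb4 was named for its call in the apex, so this p of the difference is no separate support. Bpifb4 thus stood high in cKO apex without a counterpart in control base, as Cyp2a5 did.

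Of xenobiotic enzymes related to Cyp2f2 and Cyp2a5, 3 of 10 tested rose in cKO apex (Gsta3, Cyp4b1 and Cyp2b10) and Cyp2e1 fell; Cyp2b10 passed the low-count filter through cKO apex. Gsta3, a glutathione transferase, was at 3.72 ± 0.357 CPM in cKO apex, against 1.41 ± 0.372 CPM in control apex (log2 change 1.39 ± 0.19, edgeR adjusted p = 2.03e-07). Cyp2b10, named after its values were seen, had 47 counts in cKO apex and 0 in control apex, at least 16.9-fold higher, and 4 counts each in cKO base and control base. Like Cyp2a5, it was at a lower proportion to Bpifa1 in control base, where its count at the cKO apex proportion would be 17.4.

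Of the airway ciliated cell genes, 8 of 20 tested rose in cKO apex and 5 in cKO middle with 0 falling (12 and 11 had an unadjusted edgeR p under 0.05, and DESeq2 called 8 and 5), and 0 were called in cKO base (6 had an unadjusted edgeR p under 0.05 there, and DESeq2 also called 0). The 8 include Cdhr3, with 72 counts in cKO apex and at most 7 in another pool, and Ccdc153, with 65 and at most 4, which passed the low-count filter through cKO apex. Dynlrb2, Dnah5 and Rsph4a reached 10 counts in each library only in cKO apex and cKO middle. They thus passed the filter through the pools where they were high, and their calls there are no separate support. Dnah5 and Dnah9, heavy chains of the outer dynein arm, were among those called in both. Dnah5 was at 2.94 ± 0.265 CPM in cKO apex, against 0.158 ± 0.0517 CPM in control apex (4.18 ± 0.30, edgeR adjusted p = 9.04e-14), and at 1.7 ± 0.164 CPM in cKO middle, against 0.0924 ± 0.0529 CPM in control middle (4.14 ± 0.37, adjusted p = 2.15e-11). Dnah9 rose by 2.11 ± 0.25 in cKO apex (adjusted p = 9.28e-09) and by 2.5 ± 0.30 in cKO middle (adjusted p = 2.41e-08). Their changes in the apex exceeded those in the base by 3.52 ± 0.57 and 2.24 ± 0.44 (edgeR adjusted p = 7.93e-06 and 1.49e-04). Dnah5 and Dnah9 were named for their calls in the apex, so these p-values of the difference are no separate support.

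Dnah3 was called in the apex and not in the middle, Dynlrb2 in both and Foxj1 in neither, and the difference between middle and apex was not tested. Dnah3, an inner dynein arm heavy chain, was at 2.96 ± 0.119 CPM in cKO apex, against 0.249 ± 0.107 CPM in control apex (3.55 ± 0.25, edgeR adjusted p = 6.08e-14), but at 0.365 CPM in cKO middle, against 0.393 CPM in control middle. Dynlrb2, a dynein light chain, rose by 1.72 ± 0.32 in cKO apex (adjusted p = 4.08e-05) and by 1.24 ± 0.39 in cKO middle (adjusted p = 0.0116). The call of Dynlrb2 in the middle was lost without cKO middle replicate 2 (1.11, adjusted p = 0.0541) or control middle replicate 3 (0.98, adjusted p = 0.0818). Foxj1, the transcription factor of motile cilia, was at 15.6 ± 0.137 CPM in cKO apex and 17.1 ± 1.26 CPM in control apex and was not called. The ciliated list summed to 108 to 112 CPM in cKO apex, against 95.5 to 99.1 CPM in control apex. Dnah5 and Dnah3 were among the earlier results and are no separate support.

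In the apex the median log2 change was 0.06 in the epithelial identity list, 0.13 in the basal cell list, -0.04 in the alveolar list, 0.64 in the mucosal host defence list, 0.67 in the squamous epithelium list, -0.35 in the nasal and olfactory list and 0.09 in the gland list. The mucosal host defence list summed to 370 to 377 CPM in cKO apex, against 277 to 287 CPM in control apex. Of 17 tested epithelial identity genes, 0 were called by edgeR and by DESeq2, with 9 at an unadjusted edgeR p under 0.05, and likewise 0 of 5 basal cell genes (4 under 0.05), 0 of 6 alveolar genes (2 under 0.05) and 0 of 9 mucosal host defence genes (7 under 0.05). With 1 library left out, when fewer libraries must pass the filter, up to 2 basal cell genes were called. In the squamous epithelium list Krt4 and Sprr1a rose, 2 of 6 tested, and the call of Sprr1a was lost without cKO apex replicate 3. Gng13 of the nasal and olfactory list and Prol1 of the gland list fell, each 1 of 5 tested, and the call of Gng13 was lost when cKO apex replicate 2 or 3, or control apex replicate 2 or 3, was left out.

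**Figure D4:**
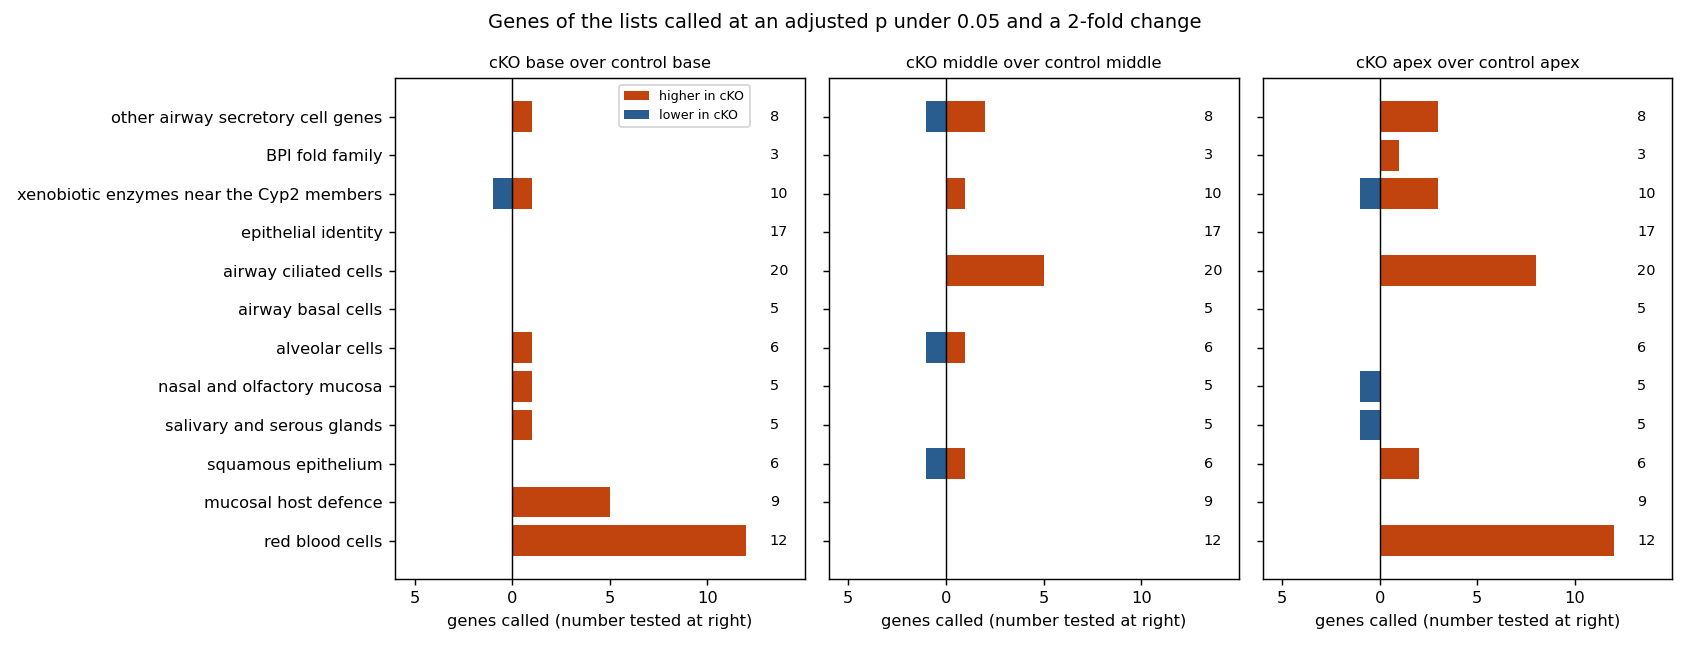
Number of genes of each list called higher (orange, to the right) or lower (blue, to the left) in cKO than in control in the base, the middle and the apex, with the number tested at the right of each panel. Ciliated cell genes are called in the middle (5) and the apex (8) and not in the base, and the 12 red blood cell genes in the base and the apex.

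In the base, where Bpifa1, Cyp2f2 and Foxa1 were lower in cKO than in control, the calls were mostly of other genes. Mucosal host defence genes rose, 5 of 9 tested, and these were Lcn2, Colec10, Camp, S100a8 and S100a9. Several of them, Camp, S100a8 and S100a9 included, are known from neutrophil granules and cytosol. The other list genes that rose in cKO base were Slpi, Cyp2g1, Hopx, Gng13 and Ltf, and Cyp2e1 fell. All 12 red blood cell genes rose in cKO base (median log2 change 1.82) and in cKO apex (1.36). Their summed level was 1658 to 1676 CPM in the cKO base libraries, against 569 to 570 CPM in control base, and 939 to 956 CPM in cKO apex, against 381 to 388 CPM in control apex. The red blood cell genes thus moved with the members in the apex and against Bpifa1 in the base, and their part in the members' levels was not tested.

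Genes with a pattern most like Bpifa1 were ranked by Pearson's r of log2(CPM + 0.1) over the 6 pool means, among the 201 genes that span at least 3 log2 units. The pools are the same for every gene and share their library depth, and r is a description. The 10 with the highest r were Cyp4a12b (0.931), the members Cyp2f2 (0.928) and Foxa1 (0.903), Gabrp, Upk1b, Ccdc180, the member Sec14l3 (0.742), Adh7, Atp6v1b1 and Slc5a8. Reg3g came next at rank 11 (0.698) and Cyp2a5 at rank 17 (0.582), whereas Bpifb3 was at rank 122 (-0.0205). With a pseudocount of 1 CPM, which leaves 56 genes to rank, 1 of the 10 (Cyp2f2) was again among the first 10, and on the log2(FPKM + 0.1) scale, with 156 genes, 2 were (Cyp2f2 and Sec14l3).

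Several of these genes shared the level in control base as well. Cyp4a12b, a fatty acid hydroxylase with a near-identical paralog, had 57 counts in cKO apex and 1 in control apex, and 23 counts in cKO base and 62 in control base. Gabrp, a GABA receptor subunit of epithelia, had 61 counts in cKO middle and 0 in control middle, 60 counts in cKO apex and 1 in control apex, and 45 counts in cKO base and 67 in control base. Upk1b, a uroplakin, was at 1.08 CPM in cKO apex and 0.192 CPM in control apex, and at 1.54 CPM in cKO base and 2.22 CPM in control base. Each was at least as high in control base as in cKO apex, unlike the members.

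The other 4 were mainly cKO apex genes. Ccdc180, a coiled-coil protein, had 60 counts in cKO apex and 1 in control apex, and 5 counts each in cKO base and control base. Adh7, an alcohol and retinol dehydrogenase, had 75 counts in cKO apex and 2 in control apex, and 12 in cKO base and 19 in control base. Atp6v1b1, a proton pump subunit, was at 1.1 CPM in cKO apex and 0.136 CPM in control apex, and Slc5a8, a monocarboxylate transporter, at 0.905 CPM in cKO apex and 0.0227 CPM in control apex. Outside cKO apex none of these 4 genes had a pool mean above 0.218 CPM.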

How the data were processed

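Per the labels, RNA of each region and genotype was pooled and divided into 3 technical libraries, made with a TruSeq v2 kit and Ribo-Zero. The submitters' processing notes name STAR 2.5.2b, Cuffdiff 2.2.1 and GRCm38/mm10. The deposited table holds expected counts (estimated by the authors for each gene in each library), of which 77.6% to 78.8% of the nonzero values are whole (tolerance 1e-06), and FPKM values computed by the authors; how counts were assigned is not given in the sources used here. Counts were rounded. Every library column was used.

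Genes were filtered with filterByExpr and 17901 remained. TMM scaling and quasi-likelihood F tests (edgeR 4.0.16, R 4.3.3; 1 design of 6 groups, 12 residual degrees of freedom, two-sided, Benjamini-Hochberg adjustment over all tested genes) gave log2 changes and SE. The common coefficient of variation was 0.00988, hence the 2-fold threshold for a call. Ratios of counts have exact (Clopper-Pearson) 95% intervals. Libraries of 1 pool differed by a chi-square of 1.19 to 1.59 per degree of freedom and were kept apart, since merging leaves no spread. Alternatives were RLE factors, DESeq2 1.42.0, no count filter, no fold threshold, replicate number as a block, limma 3.58.1 on log2(FPKM + 1) and leaving out each library. The fit was tested on simulated data.

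The members and lists were chosen with earlier results of these data known. Beside members, the text names defining genes, up to 4 called genes per list with a mean of at least 1 CPM in a pool, and the 10 genes most like Bpifa1; other genes were named after their values were seen. Of 196 list entries 193 were found.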

Additional observations from a re-analysis of the deposited data

Results flagged for a closer look

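For 4 members the difference between cKO and control went one way in all libraries of the apex and the opposite way in all libraries of the base, without overlap in either region. The change in the apex minus that in the base, on the log2(mean CPM + 0.1) scale, was 5.89 for Bpifa1, 7.27 for Cyp2f2, 3.15 for Foxa1 and 2.66 for Bpifb1, whose base values are 3 counts in cKO and 10 in control. These differences were not tested, since the members were chosen from the same pools.

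For genes of the lists the same difference was tested as an interaction in edgeR. The list genes given here were named for calls in cKO apex or control base, pools that enter the difference. Their calls by it are therefore no separate support. The difference was 3.52 for Dnah5, 3.20 for Dnah3, 2.24 for Dnah9 and 1.58 for Dynlrb2 (adjusted p = 0.0288) among ciliated cell genes, 2.08 for Bpifb4, 2.03 for Gsta3 and 1.66 for Cbr2. For Prol1, a gland gene, it was -1.64, and for Fst it was -1.07 (adjusted p = 4.68e-06). Of all genes 0.855% were called higher and 1.56% lower by this contrast. Dnah5 and Dynlrb2 passed the low-count filter through cKO apex and cKO middle, where they were high, so their calls are no separate support. The call of Dynlrb2 was lost without any of cKO apex replicate 1, cKO base replicate 1, control apex replicates 2 and 3 or control base replicate 3, with values from 1.01 to 1.52, and by DESeq2 (adjusted p = 0.0578).

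Genes picked for their likeness to Bpifa1 also had a larger change in the apex, and since they were picked on these pools no p is given. The fitted difference was 6.76 for Cyp4a12b, 5.98 for Gabrp, 5.60 for Adh7, 5.43 for Ccdc180, 4.75 for Slc5a8, 2.99 for Upk1b and 2.44 for Atp6v1b1. All but Upk1b and Atp6v1b1 rest on 1 or 2 counts in control apex, so these sizes depend on the prior count. The call of Slc5a8 was lost without control base replicate 1 (3.67), and that of Atp6v1b1 without replicate 3 of cKO base (2.13) or of control base (2.34).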

How the results depend on the processing

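Each group is 1 pool, so no alternative measures the spread between animals, and low members rest on few counts. RLE factors, DESeq2, no count filter and the 18 fits that left out 1 library kept every count of called genes within 1.5 times, over all genes and over the 11 lists together. Without the fold threshold, calls numbered 7266 in the apex, 6385 in the middle, 6459 in the base, 9396 for control base over control apex and 5647 for control base over control middle, against 365, 487, 542, 981 and 488 with it; in the lists together they numbered 47, 48, 42, 50 and 44, against 20, 13, 11, 17 and 15. On the log2(FPKM + 1) scale these were 46, 111, 122, 253 and 84 over all genes and 4, 2, 7, 4 and 8 in the lists, members called in the middle numbered 2 in place of 6, and named genes with a called difference between apex and base 7 in place of 16. With raw totals the Bpifa1 ratio of cKO apex to control base was 2.88. For likeness, 1 and 2 of 10 genes were shared under the pseudocount of 1 CPM and under FPKM. The cause was not tested.

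Of 2184 alternatives of the 91 calls of named genes, 2098 kept the call, 86 lost it and 0 reversed. Dropping the fold threshold could not lose a call, and many fits left out a library outside the pools compared. The number kept therefore overstates how stable the calls are. Replicate numbers did not pair the libraries: correlations of same-numbered libraries ran from -0.0681 to 0.0272. With the number as a replicate block, calls were 363 in the apex, 489 in the middle and 544 in the base. The ratio of mean CPM in cKO apex to control base was 6.23 for Bpifb1 but 9.67 without control base replicate 2, 20.8 for Reg3g but 31.4 without control base replicate 3, 398 for Cyp2a5 but 79.8 on FPKM, and 7.7 for Muc5b but 5.13 without control base replicate 2 and 11.7 without control base replicate 3.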
